A study of Mus musculus with 12 samples.

Results

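The enzymes that build the waxes and esters of sebum were examined in mouse epidermis with and without Pparg. The set has 8 members, chosen by gene symbol from the deposited table of counts: Fa2h, Awat1, Awat2, Far1, Far2, Soat1, Dgat1 and Dgat2. They were chosen with earlier results of these data known. All 8 were among the 14533 genes listed. RNA came from untreated, non-lesional dorsal skin of C57BL/6 mice, snap frozen and scraped with a curette until the vessels under the epidermis showed, so superficial dermis was included. All 12 mice carried Pparg flox/flox. The 6 Pparg-/-epi mice also carried 1 copy of Cre under the Cytokeratin14 promoter, which is active in basal keratinocytes of the epidermis and hair follicle. The study describes the 6 wildtype (WT) mice as Cre-negative siblings. In the labels, 4 WT mice shared a breeding number that was given for no Pparg-/-epi mouse. Only 1 breeding number occurred in both genotypes. By the labels, both groups were 8 to 13 weeks old (other records of the study give other ages for some mice), with 3 male and 3 female WT mice and 2 male and 4 female Pparg-/-epi mice.

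Sebaceous glands open into hair follicles and release their lipids when the whole cell breaks down. A fatty acyl-CoA is reduced to a fatty alcohol by FAR1 or FAR2, and AWAT1 or AWAT2 joins that alcohol to another acyl-CoA to give a wax ester. SOAT1 esterifies cholesterol, DGAT1 and DGAT2 complete triglycerides from diacylglycerol, and FA2H adds a hydroxyl group at the second carbon of fatty acids that are used in ceramides and other lipids. PPARγ, the product of Pparg, is a lipid-activated nuclear receptor known for its role in the differentiation of sebocytes and adipocytes.

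The total count per mouse ran from 10120840 to 18851255. Counts of Pparg itself ranged from 5 to 269 (WT) and from 16 to 107 (Pparg-/-epi), and its log2 fold change was -0.10 ± 0.71 (SE, edgeR adjusted p = 0.949). The floxed exons are only a part of the gene, so gene-level counts are no check of the deletion. Levels are given in counts per 1000000 (CPM) after TMM scaling, and levels of different genes are compared only per kilobase of exon (RPKM). Sums over marker genes showed that the scrapings differed in tissue. The 6 keratinocyte markers summed to between 15831 and 43394 CPM in WT mice, and to between 27819.5 and 52051 CPM in the Pparg-/-epi group. For 4 endothelial markers the sums were 3.90 to 96.8 CPM (WT) and 19.96 to 140 CPM (Pparg-/-epi), and for 6 fibroblast markers 1014 to 34533 and 5324 to 11169 CPM. The 6 skeletal muscle markers reached 9431 CPM in WT mouse 5 and 8.82 to 386 in the other 11 mice. In the same order of groups, the 12 adipocyte markers summed to 57.9 to 832 and 93.2 to 390 CPM, and the 13 hair matrix and inner root sheath markers to 621 to 2662 and 736 to 5014 CPM. The sums were 141 to 536 and 244 to 357 CPM for the 6 leukocyte markers, and 3.52 to 38.0 and 10.5 to 166 for the 4 melanocyte markers. Altered genes among these were Krt14 (log2 fold change 0.98), the adipocyte gene Adrb3 (lower, 16.0 ± 4.85 CPM in WT against 8.02 ± 2.99, SD), the follicle gene Gata3 (-0.98) and the T cell gene Cd3e (-0.75). None of the fibroblast, endothelial or melanocyte markers was altered in edgeR's test, nor was any at an unadjusted p under 0.05 or altered in DESeq2. None of the muscle markers was altered either, with 3 at an unadjusted p under 0.05, 1 called by the likelihood ratio test and 0 by DESeq2. In bulk RNA, fewer sebocytes and less RNA per sebocyte cannot be told apart. By histology, the study saw no sebaceous glands in non-lesional Pparg-/-epi skin. Its Oil Red O staining showed no lipid-filled gland cells there. The study proposes that glands may look absent because sebum lipids cannot be formed.

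The promoters of both reductases were richer in G and C than those of both wax synthases. The RefSeq windows (GRCm38.p6, 250 bases before to 50 after the start) of both reductases and both wax synthases are shown because the ratio within each pair differed between the genotypes. For the wax synthases that difference rests on few Awat1 counts, and its call was lost in 7 of 12 tests with 1 mouse left out. Capitals mark matches to the CCAAT box on either strand. The GC box and the repeat of TA described next are in capitals as well.
Far2, chr6:148047166-148047465, plus strand: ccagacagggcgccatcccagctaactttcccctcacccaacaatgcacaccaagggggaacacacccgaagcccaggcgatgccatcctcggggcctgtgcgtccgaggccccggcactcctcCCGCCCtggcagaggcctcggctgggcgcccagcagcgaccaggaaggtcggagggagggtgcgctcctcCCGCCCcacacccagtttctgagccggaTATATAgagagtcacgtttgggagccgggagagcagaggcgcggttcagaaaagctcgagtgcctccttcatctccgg
Far1, chr7:113513584-113513883, plus strand: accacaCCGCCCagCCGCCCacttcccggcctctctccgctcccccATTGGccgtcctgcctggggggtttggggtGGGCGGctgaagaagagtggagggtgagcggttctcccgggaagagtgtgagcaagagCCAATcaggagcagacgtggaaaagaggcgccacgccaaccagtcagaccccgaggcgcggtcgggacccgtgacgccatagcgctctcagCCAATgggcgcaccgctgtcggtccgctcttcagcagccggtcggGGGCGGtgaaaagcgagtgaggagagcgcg
Awat1, chrX:100571997-100572296, plus strand: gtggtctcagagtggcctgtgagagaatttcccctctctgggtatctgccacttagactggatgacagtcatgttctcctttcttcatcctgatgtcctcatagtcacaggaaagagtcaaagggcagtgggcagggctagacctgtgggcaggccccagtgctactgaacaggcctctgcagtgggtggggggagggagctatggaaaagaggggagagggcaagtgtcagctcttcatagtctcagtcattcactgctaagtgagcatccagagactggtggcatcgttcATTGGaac
Awat2, chrX:100442668-100442967, minus strand: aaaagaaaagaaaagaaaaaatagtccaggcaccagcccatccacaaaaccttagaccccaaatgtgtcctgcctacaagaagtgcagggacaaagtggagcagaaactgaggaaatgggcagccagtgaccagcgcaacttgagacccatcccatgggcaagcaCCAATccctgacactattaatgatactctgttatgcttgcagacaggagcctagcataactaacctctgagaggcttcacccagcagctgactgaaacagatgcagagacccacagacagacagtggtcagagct
The Far windows held 66.0% (Far2) and 67.7% (Far1) G or C and 21 and 28 CG pairs, against 53.7% and 1 pair for Awat1 and 49% and 1 pair for Awat2, where the median of 32851 RefSeq windows of this length was 52.7% and 7 pairs. Far1 held 3 matches to CCAAT and 4 to GGGCGG over both strands. Far2 held no CCAAT, 2 matches to GGGCGG and a TATATA that begins 28 bases before its start. CCAAT was found in 37.4%, GGGCGG in 35.7% and TATATA in 5.67% of all windows. The nuclear receptor motif AGGTCA, found in 16.3% of all windows on either strand, was not among the letters of the 4 windows shown, of the Soat1 window or of the second Awat2 window. Neither was a direct repeat of AGGTCA with 1 base between, present in 0.0396% of windows, nor TATAAA (13.6%) nor CACGTG (7.15%).

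Of the 8 enzymes, 5 were lower in Pparg-/-epi mice: Fa2h, Awat1, Far2, Awat2 and Soat1. Far1, Dgat1 and Dgat2 did not pass the test, edgeR's quasi-likelihood test adjusted over all genes, where a gene is called altered when its adjusted p is under 0.05 and its log2 fold change is 0.6 or more in size. None was higher. Of all 14533 genes, 10.3% were altered and 5.08% were altered and lower. The study had already listed the 5 lower members as reduced in these same mice. Their count beside these shares is therefore not independent evidence. The WT and Pparg-/-epi ranges did not overlap for 3 of the 8, namely Fa2h, Awat1 and Far2, with every Pparg-/-epi mouse below every WT mouse. This was so for 3.95% of all genes. The deposited table keeps genes above 0.5 CPM in at least 6 mice. Fa2h and Awat1 met this through the WT group, since only 2 and 1 Pparg-/-epi mice were above that level, whereas Far1, Far2, Soat1, Dgat1 and Dgat2 exceeded it in all 12 mice and Awat2 in 10.

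**Figure D1:**
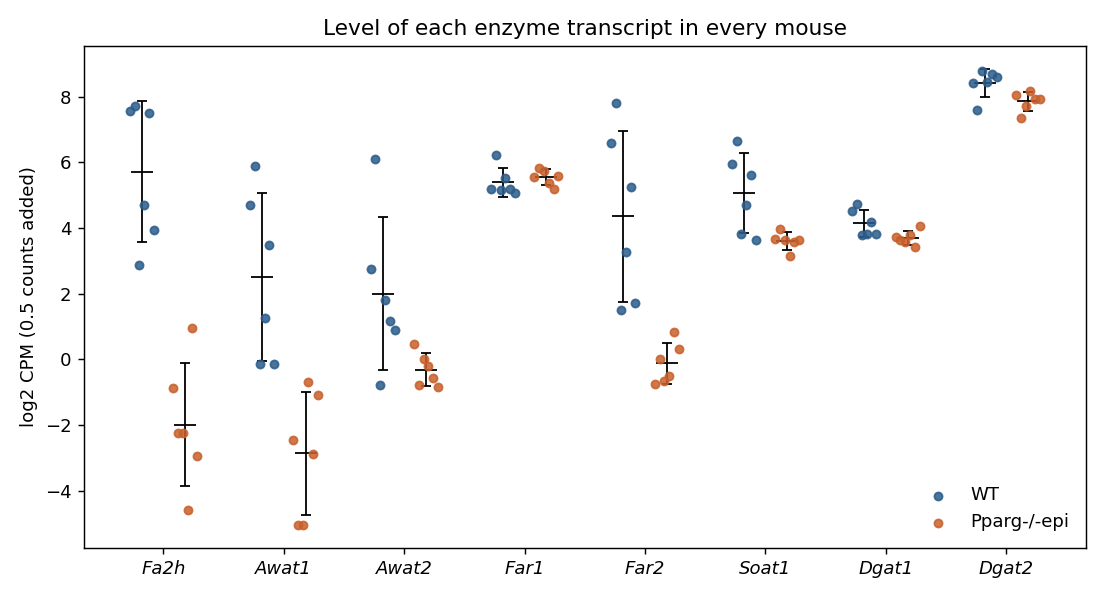
Level of each enzyme transcript as log2 CPM with 0.5 counts added (vertical axis) for the 8 genes, with 1 point per mouse in 6 WT (blue) and 6 Pparg-/-epi mice (orange), and black bars for mean ± SD. Fa2h, Awat1 and Far2 show 2 separate groups of points, Far1 shows overlapping ones, and the WT points of Fa2h, Awat1, Awat2 and Far2 spread over several log2 units.

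Fa2h, the fatty acid 2-hydroxylase (chr8:111345138-111393821, mm10, minus strand), fell furthest. Its WT levels were 191, 210, 7.25, 26.0, 181 and 15.2 CPM in mice 1 to 6. In Pparg-/-epi mice 7 to 12 they were 0.520, 0.182, 0.182, 0, 1.90 and 0.0859 CPM. WT mice 1, 2 and 5 were thus far above WT mice 3, 4 and 6, and all 6 were above the highest Pparg-/-epi mouse, number 11. The 6 Pparg-/-epi libraries held 38 Fa2h counts between them, against 9920 in WT, and the count of 0 in mouse 10 allows up to 0.250 CPM. The log2 fold change was -7.85 ± 1.12 (SE, edgeR adjusted p = 9.15e-04), a 231-fold lower level with a 95% confidence interval of 43.2-fold to 1232-fold. Without Pparg-/-epi mouse 11 the log2 fold change was -8.86.

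Far2, a fatty acyl-CoA reductase (chr6:148047416-148182760, plus strand), ran from 2.77 CPM in WT mouse 3 through a median of 23.7 to 225 in WT mouse 2. In Pparg-/-epi mice it ran from 0.572 through 0.818 to 1.72 CPM. The groups did not overlap, and the WT mice differed among themselves by 81.2-fold from lowest to highest. Far2 was 67.0-fold lower (95% confidence interval 12.4 to 363, log2 fold change -6.07 ± 1.13, edgeR adjusted p = 0.00390), and its log2 fold change was -5.01 without WT mouse 2. Part of its exons, 837 bases or 24.6%, overlaps Ergic2 on the opposite strand, and whether reads were counted by strand is not given in the sources used here. Each Pparg-/-epi library held 8 to 19 Far2 counts.

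Far1, the other fatty acyl-CoA reductase, which also serves ether lipid synthesis (chr7:113513834-113570888, plus strand), had nearly the same level in both genotypes. WT mice ran from 33.3 through 36.2 to 74.5 CPM and Pparg-/-epi mice from 36.35 through 47.3 to 57.2 CPM. The WT maximum was again mouse 2, and the other 5 WT mice lay at 46.2 CPM or lower. The log2 fold change was 0.11 with a 95% confidence interval from -0.31 to 0.53 (edgeR adjusted p = 0.761), so a change beyond 1.45-fold in either direction lay outside the interval.

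Awat1, a wax synthase (chrX:100572247-100578206, plus strand), ran from 0.852 through a median of 6.71 to 58.6 CPM among WT mice, and from 0 through 0.123 to 0.582 CPM without epidermal Pparg. WT mice 1 and 2 had 408 and 1104 counts, WT mouse 3 had 8, and the 6 Pparg-/-epi libraries held 16 counts in all. Mice 8 and 9 had no Awat1 count, which allows up to 0.182 CPM in each. Awat1 was 83.0-fold lower (95% confidence interval 12.3 to 562, log2 fold change -6.38 ± 1.28, edgeR adjusted p = 0.00563), with a log2 fold change of -5.36 without WT mouse 2 and -6.98 without Pparg-/-epi mouse 10.

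Awat2, the second wax synthase (chrX:100402222-100442717, minus strand), depended most on 1 mouse. WT mice had 6.71, 68.6, 0.533, 3.50, 2.21 and 1.83 CPM in the order 1 to 6, and Pparg-/-epi mice ran from 0.515 through 0.732 to 1.35 CPM. WT mouse 3 lay within the Pparg-/-epi range and the other 5 lay above it. The log2 fold change was -4.08 ± 1.07 (edgeR adjusted p = 0.0219), or 16.9-fold lower (95% confidence interval 3.42 to 83.4). Without WT mouse 2 it was -1.86, with an adjusted p of 0.0210. With age as a covariate it was -2.75 and no longer passed the test (edgeR adjusted p = 0.0807).

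Soat1, the sterol O-acyltransferase that makes cholesterol esters (chr1:156428108-156474328, minus strand), fell less. WT mice ran from 12.4 through 37.5 to 101 CPM and Pparg-/-epi mice from 8.73 through 12.3 to 15.6 CPM. WT mice 3 and 6 lay in the Pparg-/-epi range, and the other 4 WT mice lay above every Pparg-/-epi mouse. Soat1 was 3.59-fold lower (95% confidence interval 1.82 to 7.09, log2 fold change -1.85 ± 0.45, edgeR adjusted p = 0.0163). Its relative Soat2 had 3 to 12 counts per library in both groups and a log2 fold change of 0.24 (edgeR adjusted p = 0.727).

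Neither triglyceride enzyme passed the test. Dgat1 (chr15:76502015-76511818, minus strand) ran from 13.9 through 16.1 to 26.5 CPM in WT and from 10.8 through 12.7 to 16.7 CPM in Pparg-/-epi mice. The ranges overlapped, with 5 of the 6 Pparg-/-epi mice below every WT mouse. Its log2 fold change was -0.48 with a 95% confidence interval from -0.88 to -0.08 (edgeR adjusted p = 0.101). Dgat2 (chr7:99153663-99182713, minus strand) ran from 192 through 366 to 440 CPM in WT and from 163 through 244 to 291 CPM in Pparg-/-epi mice. WT mice other than mouse 2 lay above every Pparg-/-epi mouse, and mouse 2 lay within their range. Its log2 fold change was -0.58 with a 95% confidence interval from -0.99 to -0.17 (edgeR adjusted p = 0.0551), and without WT mouse 2 it was -0.72 and passed the test (adjusted p = 0.00330). The adjusted p of Dgat2 was 0.0312 in edgeR's likelihood ratio test, 0.0190 in DESeq2 and 0.0275 in edgeR with library totals. In these fits its log2 fold change stayed short of 0.6 in size. With RIN as a covariate its edgeR adjusted p was 0.144. The relatives Dgat2l6, Mogat1 and Mogat2 have no row among the genes analysed here.

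**Figure D2:**
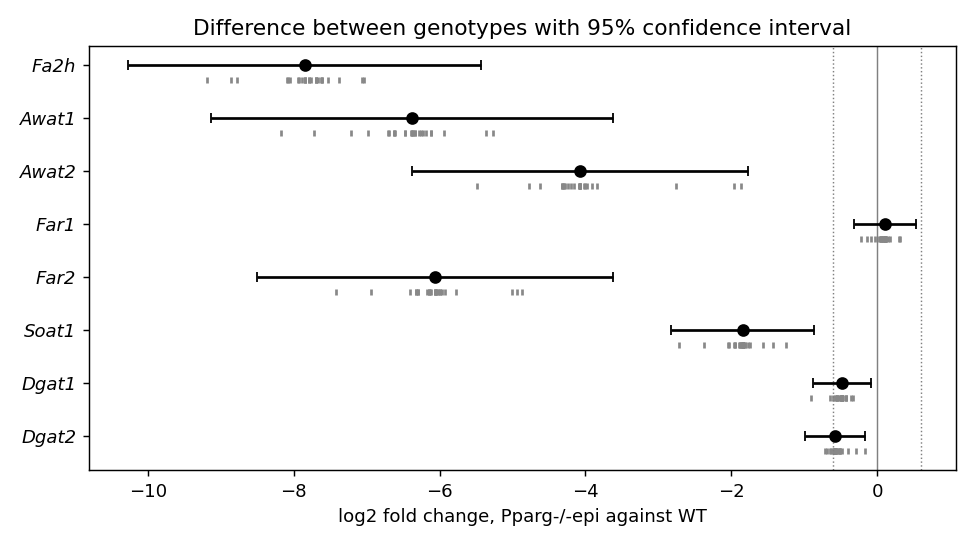
Log2 fold change of Pparg-/-epi against WT (horizontal axis) for the 8 enzymes, with black points for the estimate, bars for the 95% confidence interval, grey ticks for the values under the alternative fits, and dotted lines at the threshold of 0.6 in either direction. The interval lies beyond the threshold for Fa2h, Awat1, Awat2, Far2 and Soat1, and that of Far1 spans 0.

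The order of the transcripts per kilobase differed between the genotypes. In WT mice Dgat2 had the highest median, 162 RPKM, and was above Fa2h (41.5) in 6 of 6 mice. Fa2h exceeded Dgat1 (9.18) in 4 of 6 mice. Dgat1, Far1 (8.02), Soat1 (7.84) and Far2 (6.99) followed, and neighbours among them kept their order in only 3 or 4 of the 6 mice. Awat1 (4.81) was below Far2 in 6 of 6 mice and above Awat2 (1.34) in 5 of 6. In Pparg-/-epi mice Dgat2 (109 RPKM) was followed by Far1 (10.5), Dgat1 (7.24) and Soat1 (2.58), each above the next in 6 of 6 mice. Soat1 was above Awat2 in 6 of 6 as well. Awat2 (0.345), Far2 (0.241), Awat1 (0.0883) and Fa2h (0.0730) came last, and Awat2 and Far2 did not separate, with Awat2 higher in 3 of 6 mice. Nor did Awat1 and Fa2h, with Awat1 higher in 2 of 6. Of the summed RPKM of the 8 enzymes, the share of Dgat2 lay between 23.5% and 89.4% in WT and between 75.4% and 86.7% in the Pparg-/-epi group. The share of Fa2h lay between 1.33% and 24.5% in WT and was at most 0.598% in the other group.

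Ratios of related enzymes within a mouse do not depend on the scaling between libraries. Each of 4 was compared as the log2 ratio of counts per kilobase with 0.5 counts added, by an exact permutation test (two-sided, n = 6 and 6, smallest possible p = 0.00216) with Benjamini-Hochberg adjustment over the 4. The ratio of Far2 to Far1 averaged -0.62 ± 2.35 in WT and -5.26 ± 0.76 in Pparg-/-epi mice (SD), a difference of -4.64 with no overlap (exact p = 0.00216, adjusted p = 0.00866). In linear terms its median was 0.623 in WT and 0.0230 in Pparg-/-epi mice. The ratio of Awat1 to Awat2 was 1.12 ± 1.37 in WT and -1.94 ± 1.94 in Pparg-/-epi mice (exact p = 0.0173, adjusted p = 0.0346). It also separated the sexes within each genotype. In WT it was 1.24 to 2.91 in male and -0.42 to 0.38 in female mice. In Pparg-/-epi mice it was 0.12 to 0.37 in males and -4.44 to -1.71 in females. The permutation test took no account of sex, which was not balanced between the genotypes. In Pparg-/-epi mice this ratio rests on 0 to 7 Awat1 counts per library, and with 2 counts added in place of 0.5 the difference between genotypes was -2.21 instead of -3.05 (exact permutation test, adjusted p = 0.0390). The ratio of Soat1 to Dgat1 was -0.53 ± 0.85 in WT and -1.54 ± 0.37 in Pparg-/-epi mice (exact p = 0.0325, adjusted p = 0.0433). The ratio of Dgat2 to Dgat1 was 3.92 ± 0.79 and 3.81 ± 0.31 (exact p = 0.766, adjusted p = 0.766). The adjusted p of Awat1 to Awat2 ran from 0.0231 to 0.0693 and that of Soat1 to Dgat1 from 0.0231 to 0.0866 when 1 mouse was left out, and the call was lost in 7 and 10 of the 12 tests. That of Far2 to Far1 stayed at 0.0173.

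**Figure D3:**
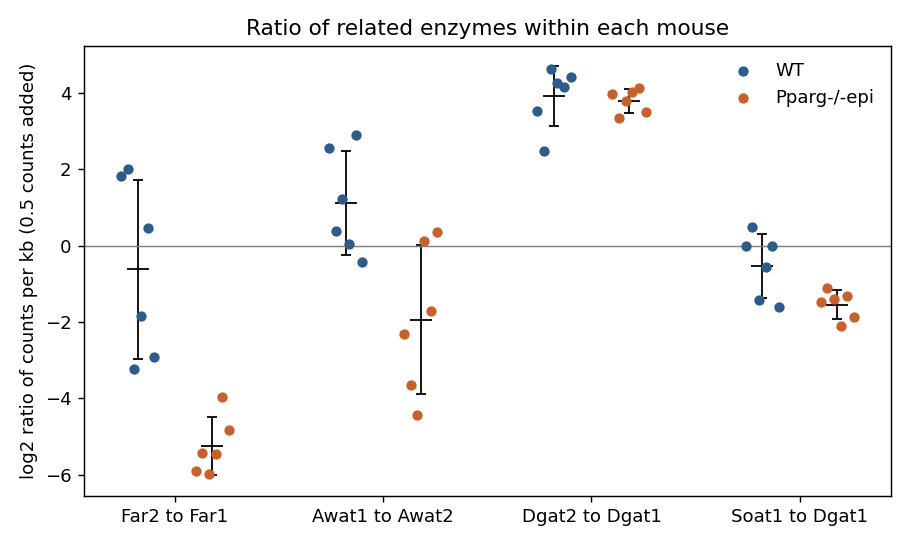
Log2 ratio of counts per kilobase with 0.5 counts added (vertical axis) for 4 pairs of enzymes, with 1 point per mouse in 6 WT (blue) and 6 Pparg-/-epi mice (orange) and black bars for mean ± SD. The groups are separate for Far2 to Far1 and overlap for the other 3 pairs.

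The spread among WT mice was itself ordered. From lowest to highest WT mouse the level differed 29.0-fold for Fa2h, 68.7-fold for Awat1, 129-fold for Awat2, 81.2-fold for Far2 and 8.14-fold for Soat1, but 2.24-fold for Far1, 1.92-fold for Dgat1 and 2.29-fold for Dgat2. Across the 6 WT mice Awat1 and Far2 were the closest pair of members, with a root mean square difference of 0.12 between their centred log2 CPM, where Far2 alone spread by 2.38. The genes most like Far2 were Awat1 (0.12), the desaturase Scd3 (0.35) and the lipase Pnpla5 (0.44), and Awat1 was closest to Far2 (0.12), Pnpla5 (0.37) and Scd3 (0.38). For Fa2h they were Fam57b (0.35), Cidea (0.37) and Ptprb (0.38), and for Awat2 they were Lrat (0.47), Pi16 (0.51) and Acaa1b (0.52). Soat1 was closest to Nes (0.11), Klhl22 (0.13) and Paqr7 (0.14). Dgat1 was closest to Dag1 (0.06), Mesdc1 (0.06) and Ap2a2 (0.07), Dgat2 to Ybx3 (0.05), Elovl1 (0.06) and Lypd3 (0.06), and Far1 to Lrrn3 (0.07), Casp6 (0.08) and Sh3bgrl (0.09). These measures describe 6 mice, and all genes of a mouse share its library.

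Fa2h, Awat1, Far2, Soat1 and Dgat1 were highest in the WT mice with the most endothelial, fibroblast, adipocyte and sebocyte marker signal, while Awat2, Far1 and Dgat2 did not follow that order. The 4 endothelial markers summed to 49.98, 96.8 and 26.7 CPM in WT mice 1, 2 and 5, which had the most Fa2h, and to 4.48, 9.55 and 3.90 CPM in WT mice 3, 4 and 6. The fibroblast sums split the WT mice alike (8235 to 34533 against 1014 to 7331 CPM), as did the adipocyte sums (120 to 832 against 57.9 to 86.4 CPM). The sebocyte marker sums, described below, split them alike too (1809 to 4193 against 975.2 to 1220 CPM). The keratinocyte, leukocyte, muscle, hair and melanocyte sums did not. In Pparg-/-epi mice 7, 8 and 9 the endothelial markers summed to 109, 140 and 109 CPM, above every WT mouse, while Fa2h was at most 0.520 CPM and Soat1 at most 15.6 CPM there. With the endothelial sum as a covariate the log2 fold changes were -9.19 for Fa2h, -7.21 for Awat1, -6.95 for Far2, -4.63 for Awat2 and -2.37 for Soat1. Each still passed the test (edgeR adjusted p at most 0.000826), and Dgat1 then passed it too, at -0.65 (adjusted p = 0.0222). This fit takes the same slope on the endothelial sum for both genotypes, and its fold changes depend on that slope. Within Pparg-/-epi mice Fa2h did not follow the sum. It was highest there, at 1.90 CPM, in mouse 11, where the sum was 46.5 CPM. With the fibroblast sum as a covariate the same 5 members were altered, as they were without WT mouse 5, the mouse with muscle RNA. Both marker covariates were added after the data had been seen. The part of tissue content in the difference between genotypes was not tested. WT mice 3, 4, 5 and 6 shared a breeding number, and WT mice 1 and 2 had others. WT mice 1 and 2 were also the youngest WT mice, at 8 and 9 weeks, and with age as a covariate 4 of the 5 remained altered, without Awat2. That fit rests on the ages in the labels.

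**Figure D4:**
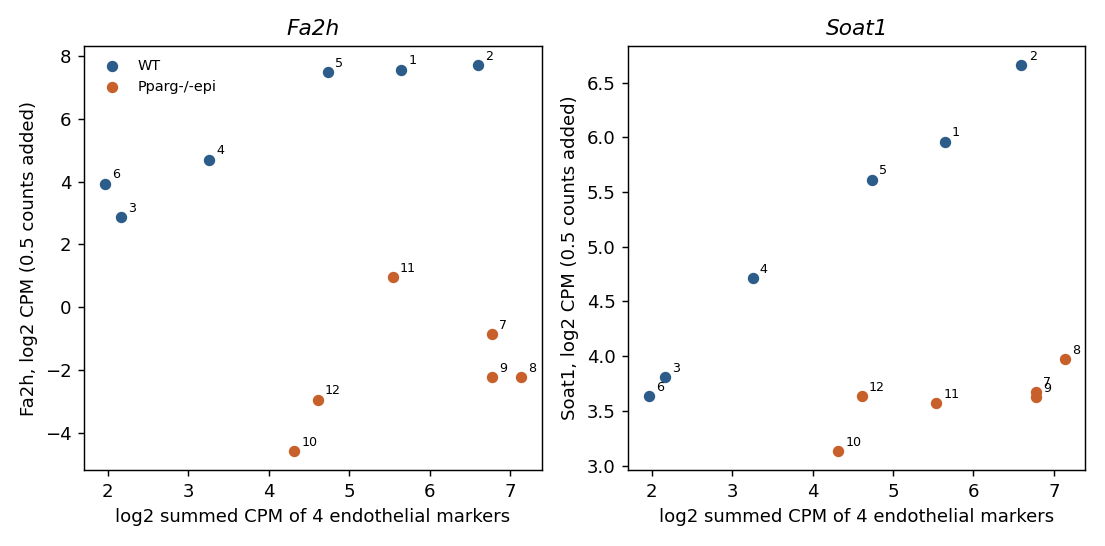
Log2 CPM with 0.5 counts added of Fa2h (left) and Soat1 (right) on the vertical axes against the log2 summed CPM of 4 endothelial markers, with 1 point per mouse, numbered 1 to 6 for WT (blue) and 7 to 12 for Pparg-/-epi (orange). Within WT, mice 1, 2 and 5 lie to the upper right, and Pparg-/-epi mice with as much endothelial signal lie far lower for both genes.

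The differences were not shown to depend on sex. The genotype by sex term of edgeR's quasi-likelihood fit had adjusted p-values from 0.895 to 0.988 for the 8 enzymes. No gene of the 14533 passed an adjusted p of 0.05 for this term, with 741 at an unadjusted p under 0.05. The intervals were wide for the altered members, for instance from -12.7 to 4.26 log2 units for Fa2h, and narrower for Far1, from -0.43 to 1.19.

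Genes of pathways connected to these enzymes were followed in lists. Of 15 sebocyte markers, 13 were measured, of which 7 fell, 1 rose and 5 were not altered, with a median log2 fold change of -2.06 against -0.01 for all genes. Several of these markers were chosen in the study from these same mice and are not independent evidence of direction. Among the altered markers that fell, the largest changes were in the desaturase Scd3 (-7.68), the peroxisomal thiolase Acaa1b (-4.57), the scaffold protein gene Pdzk1 (-2.53) and the ceramide synthase Cers4 (-2.38). Krt79, a keratin of the upper follicle and the sebaceous duct, rose by 2.70, on the log2 scale: WT mice lay between 45.7 and 1335 CPM, Pparg-/-epi mice between 1849.8 and 3513. With Krt79 included, the summed sebocyte markers lay between 975.2 and 4193 CPM for WT, and between 2463 and 4080.3 for Pparg-/-epi. Elovl3 (-2.91), Cidea (-1.75), Plin2 (-1.06), Mgst1 (-0.46) and Apoc1 (0.58) did not pass the test. The study, which used a likelihood ratio test, listed Elovl3 as reduced. With that test run here, 9 of the 13 markers were altered, against 8 in the quasi-likelihood test.

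Of 30 genes that make and activate fatty acids, 29 were measured, 9 fell and 1 rose, with a median of -0.45. Besides Scd3, the altered genes with the largest change were the very long chain acyl-CoA synthetase Slc27a2 (-4.36), the desaturase Scd1 (-2.06), the acetyl-CoA carboxylase Acacb (-1.99) and the elongase Elovl5 (-1.97). Elovl7 was the gene that rose (0.79). The study had already listed Scd1, Scd3, Elovl3, Elovl5, Elovl6 and Slc27a2 as reduced in these same mice, so this list is not independent evidence either. Scd1, Scd3 and Elovl3 are also among the sebocyte markers. In the triglyceride pathway 1 of 18 measured genes fell, the monoglyceride lipase Mgll (202 against 50.6 CPM on average), and the median was -0.03. Of 25 cholesterol and sterol ester genes, 1 fell, the sterol oxidase Msmo1 (-0.85), and the median was -0.20. Ether lipid synthesis draws on the alcohols made by FAR1. None of the 12 genes of ether lipid metabolism was altered in edgeR's test or in DESeq2, with 2 at an unadjusted p under 0.05. Their log2 fold changes lay between -0.69 and 0.39. Of 18 measured 2-hydroxy ceramide genes, Cers4 (-2.38) and the serine palmitoyltransferase subunit Sptlc3 (-0.92) fell, and Degs2 (2.88), which makes phytoceramide, rose. The shares altered were 61.5%, 34.5%, 5.56%, 4.00%, 0% and 16.7% in the order described, beside 10.3% of all genes. Differences between the lists were not tested.

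**Figure D5:**
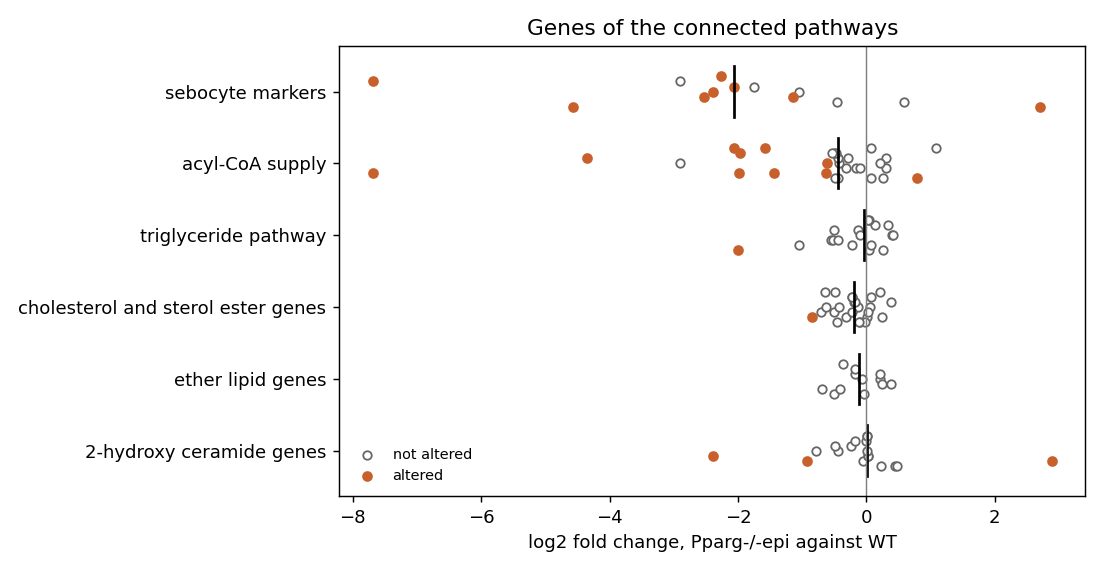
Log2 fold change of Pparg-/-epi against WT (horizontal axis) for the measured genes of 6 lists (rows), with filled points for altered genes, open points for genes not altered, and a black line at the median of each list. Altered genes lie mostly among the sebocyte markers and the acyl-CoA supply, and the medians of the other 4 lists lie between -0.20 and 0.00.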

How the data were processed

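RNA-seq was performed on scraped frozen epidermis of 6 WT and 6 Pparg-/-epi mice. Per the labels and the study's methods, the authors aligned paired reads to mm10 with STAR 2.5.2b, dropped reads that mapped to several positions, counted reads per refGene gene with featureCounts (Subread 1.5.1), and deposited whole-number counts, without normalization, for genes above 0.5 CPM in at least 6 mice (checked here: true of all 14533 genes). A filter on multiply mapped reads lowers the counts of genes with near-identical copies. Of the stretches of 75 bases in GENCODE transcripts of the members, 9.69% of those of Far2 were shared with another gene on either strand, and at most 0.151% for the other 7. The Far2 stretches were shared with Far2os2 and with Ergic2, which overlaps Far2 at the same place on the opposite strand. Such an overlap is not a copy elsewhere, so the Far2 share is no measure of reads lost to that filter. The deposited table also held 2800 blank rows, which were dropped. No column of an additional sample was present.

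Counts were scaled by TMM and tested with edgeR 4.0.16 (quasi-likelihood, Benjamini-Hochberg over all genes, R 4.3.3). Standard errors were derived from the F statistic. The study's own test was a likelihood ratio test, run here as an alternative together with DESeq2 1.42.0. Other alternatives were library totals, RLE factors, robust dispersion, a mean of at least 10 counts, sex, RIN or age as a covariate, female mice only, the 2 WT mice outside the breeding number shared by 4 WT mice, and each mouse left out. WT mice 2 and 5 left out together and the fibroblast and endothelial covariates were added after the data had been seen. Ratios were tested with scipy 1.17.1. The count test was also tried on simulated data.

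The members and lists were chosen with earlier results of these data known. All members were named, with up to 5 altered genes of each list by size of change, the relatives Soat2, Mogat1, Mogat2 and Dgat2l6, Pparg, and for each member the 3 genes closest over the WT mice. Elovl7, Elovl3, Cidea, Plin2, Mgst1, Apoc1, Ergic2 and the altered marker genes were named after their values had been seen. Gpat3, Gpat4 and Selenoi were matched through their older symbols in RefSeq. RefSeq promoter windows were found for 5 of the 8 members and not for Fa2h, Dgat1 and Dgat2. Limits from a count of 0 are 3 counts of the library and cover counting error only. Each mouse is 1 library, and replicate numbers were not shared between the genotypes.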

Additional observations from a re-analysis of the deposited data

Results flagged for a closer look

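Of 24 sets of 6 values tested (the log2 CPM of each of the 8 enzymes and the 4 log2 ratios, in each genotype), 1 held a mouse far from the others, where chance flags about 1 set in 20. Dgat2 in WT mouse 2 was at 7.59 log2 CPM, below the other 5 WT mice, with a gap of 0.695 of the whole WT range. The same mouse had the highest WT level of the other 7 enzymes, the lowest keratinocyte marker sum (15831 CPM) and the highest endothelial marker sum (96.8 CPM) of the WT mice. The part of these in the Dgat2 value was not tested. Without this mouse the log2 fold change of Dgat2 was -0.72 (edgeR adjusted p = 0.00330) in place of -0.58 (0.0551).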

How the results depend on the processing

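The calls of Fa2h and Awat1 held under all alternatives with a test, with adjusted p-values of at most 0.0224 and 0.0453. Few counts in Pparg-/-epi mice limit the precision of these folds. The cause was not tested for the changes that follow.

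In female mice only (3 and 4 mice), 2 enzymes were altered, and the log2 fold changes of those that lost the call were -4.77 for Awat2 (adjusted p = 0.0703), -6.40 for Far2 (0.0525) and -1.82 for Soat1 (0.125), with fewer samples. Far1 was -0.080. The counts altered were 4 for sebocyte markers, 6 for acyl-CoA supply, 0 for the triglyceride pathway (edgeR) and 1 for 2-hydroxy ceramide genes. With age as a covariate Awat2 was -2.75. With RIN as a covariate Far1 was -0.035, with 3 triglyceride and 1 ether lipid genes altered. With the 2 WT mice outside the shared breeding number, Far1 was -0.22 and Dgat1 -0.90 (altered). With the endothelial covariate Far1 was -0.14 and Dgat1 -0.65 (altered), with 13 sebocyte, 4 triglyceride, 2 cholesterol and 1 ether lipid genes altered. Without WT mice 2 and 5, Dgat2 was -0.69 (altered), with 3 triglyceride and 2 cholesterol genes. DESeq2 and library totals each gave 2 cholesterol genes. DESeq2 gave no adjusted p for Awat2 (-4.10).

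The single pair of mice that shared a breeding number, WT mouse 2 and Pparg-/-epi mouse 10, gave untested log2 differences of -12.3 for Fa2h (set by the 0.5 counts added to the count of 0 in mouse 10, so not a measured size), -3.53 for Soat1, -0.95 for Dgat1, -0.85 for Far1 and 0.60 for Dgat2.

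With each mouse left out, 5 or 6 enzymes were altered, Dgat2 ran from -0.72 to -0.51, the triglyceride pathway from 1 to 3 (3 without WT mouse 2, 2 without WT mouse 3 or 6) and the cholesterol list from 1 to 4 genes (4 without WT mouse 2, 2 without Pparg-/-epi mouse 10 or 11). Over all genes, the number altered rose from 1493 to 2249 without WT mouse 2 and fell to 651 in female mice and 389 with the 2 WT mice outside the shared breeding number.

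For the ratios, female mice gave differences of -4.40 for Far2 to Far1, -3.03 for Awat1 to Awat2, 0.10 for Dgat2 to Dgat1 and -0.76 for Soat1 to Dgat1, and the 2 WT mice outside the shared breeding number gave -7.17, -3.41, 0.79 and -1.78. Neither design can reach an exact p under 0.05 (smallest 0.0571 and 0.0714). Group medians gave -1.15 for Soat1 to Dgat1 (exact test, adjusted p = 0.0635). With each mouse left out, Awat1 to Awat2 ran from -3.51 to -2.55, Dgat2 to Dgat1 from -0.40 to 0.030 (0.030 without WT mouse 3) and Soat1 to Dgat1 from -1.24 to -0.82. No paired analysis was possible because only 1 breeding number, with 1 mouse of each genotype, is shared between the genotypes.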
